A study of Mus musculus with 6 samples.

Results

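Complement and coagulation are the 2 large groups of proteases, cofactors and inhibitors that the liver secretes into blood. The 39 genes described here were chosen by name, 17 for complement and 22 for coagulation, fibrinolysis and contact activation, and all 39 were found among the 53715 genes of the deposited count table. They were read in livers of 8-week-old F1 males of ICR, an outbred mouse stock, as 3 FR F1 libraries and 3 control F1 libraries of polyadenylated RNA. The labels do not explain FR. They give the exposure of the FR F1 group as paternal famine and that of the other group as control, while the series title names a paternal overdiet, so the groups keep their labelled names. Strain, sex, age and tissue were shared by both groups, and no genetic change is given for either. The labels do not say whether libraries came from separate animals or litters, so p-values measure the spread between these libraries only.

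Complement is a chain of plasma proteases that marks microbes and damaged cells, starting from antibody (C1r and C1s), from surface sugars (mannose-binding lectins and the MASP proteases) or from spontaneous activation of C3, and ending in the pore built by the terminal components. Coagulation is a parallel chain in which factor VII and the contact factors lead to factor X, thrombin and fibrin, while protein C, protein S and antithrombin restrain it and plasmin dissolves the clot. Hepatocytes make most of these proteins, several of them as acute phase proteins, under liver transcription factors such as HNF1, HNF4 and C/EBP.

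Promoter sequences are shown first for genes on which the later results turn. Factor VII and factor X had the lowest log2 fold changes among the coagulation members, protein Z lies directly beside them, and the fibrinogen chains Fga and Fgb hold motifs common among the members. Each run is the RefSeq window on GRCm38.p6 from 250 bases before the gene start to 50 after it, written 5′ to 3′ on the gene's strand, with capitals marking any match to the motifs searched. F7 is at chr8:13025784-13026083, F10 at chr8:13037058-13037357 and Proz at chr8:13060658-13060957, all on the plus strand. Fga is at chr3:83025903-83026202 on the plus strand and Fgb at chr3:83049814-83050113 on the minus strand.
F7: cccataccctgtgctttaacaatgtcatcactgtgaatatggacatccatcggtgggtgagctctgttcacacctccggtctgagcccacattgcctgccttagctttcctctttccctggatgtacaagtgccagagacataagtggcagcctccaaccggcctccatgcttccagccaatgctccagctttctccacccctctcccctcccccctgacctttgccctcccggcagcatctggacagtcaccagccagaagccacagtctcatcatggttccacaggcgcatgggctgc
F10: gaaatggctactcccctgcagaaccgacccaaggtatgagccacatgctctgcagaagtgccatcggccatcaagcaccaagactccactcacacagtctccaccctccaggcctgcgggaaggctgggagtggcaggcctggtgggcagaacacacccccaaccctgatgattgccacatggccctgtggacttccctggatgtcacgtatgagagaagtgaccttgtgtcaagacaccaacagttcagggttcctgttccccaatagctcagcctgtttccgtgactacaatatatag
Proz: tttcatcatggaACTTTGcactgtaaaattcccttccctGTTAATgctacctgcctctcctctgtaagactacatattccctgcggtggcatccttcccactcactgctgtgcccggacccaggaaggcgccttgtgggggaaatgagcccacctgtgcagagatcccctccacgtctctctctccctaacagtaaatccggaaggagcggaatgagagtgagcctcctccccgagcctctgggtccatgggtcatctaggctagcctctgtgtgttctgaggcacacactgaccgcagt
Fga: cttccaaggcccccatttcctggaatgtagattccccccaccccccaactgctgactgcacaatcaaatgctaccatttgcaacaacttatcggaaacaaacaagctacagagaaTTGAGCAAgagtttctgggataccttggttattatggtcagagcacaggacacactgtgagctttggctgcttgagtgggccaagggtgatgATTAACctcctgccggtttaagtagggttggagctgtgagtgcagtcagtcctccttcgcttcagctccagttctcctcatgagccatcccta
Fgb: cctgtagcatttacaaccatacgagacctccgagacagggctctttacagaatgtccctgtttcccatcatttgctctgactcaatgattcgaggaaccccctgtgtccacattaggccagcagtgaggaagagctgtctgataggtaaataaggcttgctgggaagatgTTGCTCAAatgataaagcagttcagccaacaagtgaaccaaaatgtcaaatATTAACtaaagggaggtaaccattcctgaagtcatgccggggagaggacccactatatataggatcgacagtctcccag
Windows were matched for 31 of the 39 members. Motifs were sought on both strands. The HNF1 motif GTTAAT was in 11 of the 31 windows (35.5%), against 8.24% of the windows of 27025 genes. The C/EBP motif TTGCNNAA was in 12 (38.7%), against 12.2% of all genes, and the HNF4 core CAAAGT in 7 (22.6%), against 16.1%. The clock motifs CACGTG and TTATGTAA were in 0 member windows, against 8.09% and 1.11% of all genes. The HNF1 match began 43 bases before the start of Fga and 29 bases before the start of Fgb. A match describes letters and not binding, and F7 and F10 held none of these letters in the windows printed.

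In FR F1 livers none of the members passed the test, and most lay slightly below control F1 livers. Of the 38 members with enough counts to be tested, 0 were higher and 0 lower in FR F1 (edgeR quasi-likelihood test with n = 3 per group, p adjusted by Benjamini-Hochberg over 13022 genes, threshold 0.05). The background of called genes was 0.837%, with 0.392% higher and 0.445% lower, and among the 1114 tested genes with a mean of at least 200 CPM (counts scaled to a common library size) it was 1.26%, with 0.0898% higher and 1.17% lower. DESeq2 and limma-voom also called 0 members. At an unadjusted p under 0.05, 0 members were higher and 12 lower in FR F1, or 31.6%. The background for that rule was 9.02% higher and 8.88% lower, and among those abundant genes it was 5.03% higher and 14.5% lower. The number of lower members by that rule depended on the fit. By limma-voom 6 complement and 6 coagulation members were lower, and 1143 of 13022 genes. DESeq2 gave 1 and 3 members, and 895 of 13022 genes. A minimum count of 30 gave 2 and 5 members, and 895 of 10540 genes. Leaving out control F1 replicate 2 gave 0 and 4 members, and 824 of 13405 genes. The log2 fold change (FR F1 over control F1) was below 0 for 30 of 38 members (78.9%), against 50% of all tested genes and 59.3% of the abundant ones. The median was -0.11 over the complement members and -0.13 over the coagulation members, against 0.0004 over all tested genes and -0.05 over the abundant ones.

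**Figure D1:**
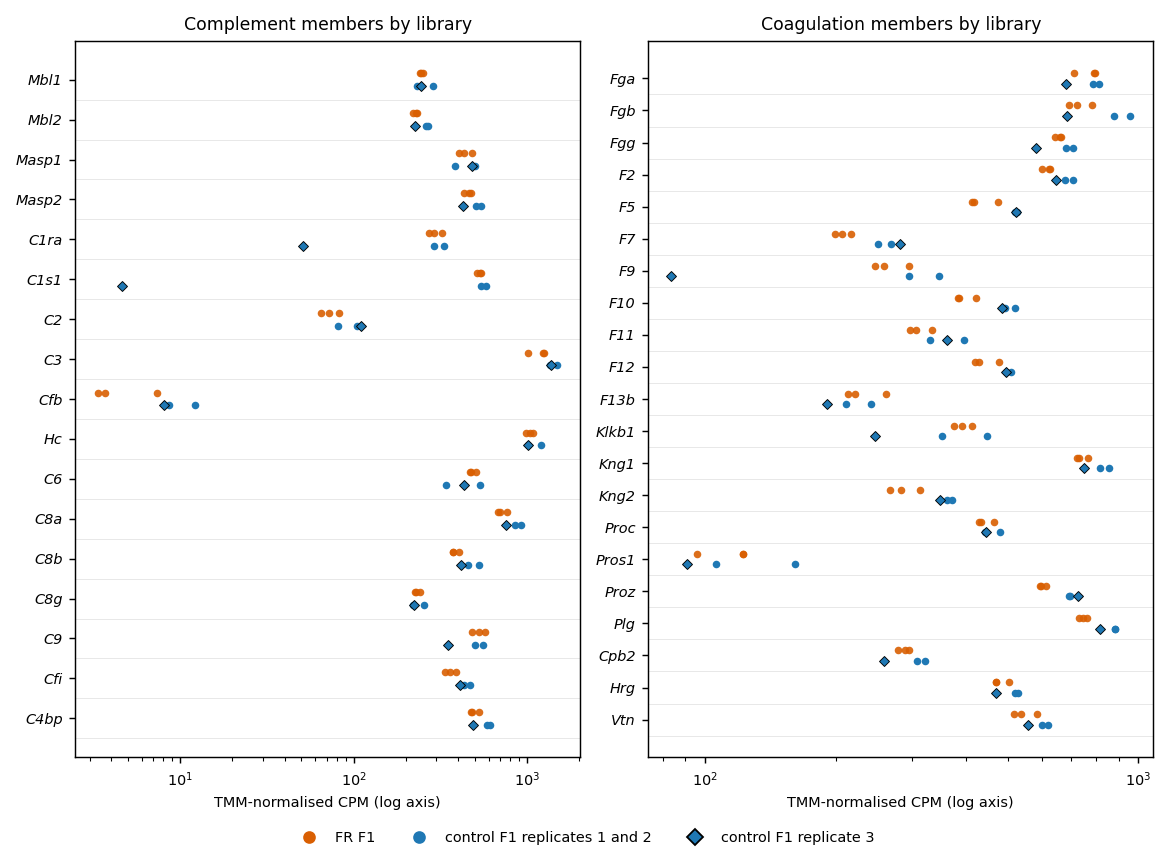
CPM of the 38 tested members in each library on log axes, complement on the left and coagulation on the right, with FR F1 above control F1 for each gene and control F1 replicate 3 as an outlined diamond. The diamond lies far to the left for C1s1, C1ra and F9, and for most other members the 6 points sit close together.

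The precision was fine enough to bound most of these differences as counted. A mean of at least 0.5 counts per base pair was reached by 15 of 38 members. Their differences and intervals may be understated if that level is a ceiling, which was not tested. For 30 of 38 members the 95% interval of the fold change lay within 1.5-fold in either direction, and the interval reached 2-fold for 4 members, C1ra, C1s1, F9 and Cfb. In 12 members all FR F1 libraries were below all control F1 libraries, and in 0 were they all above. That is 31.6% of members, against a background of 13.2% lower and 12.5% higher over all tested genes, and 22.4% lower and 7.81% higher over genes of at least 200 CPM. The 12 were C3, Cfb, C8b and Cfi in complement and F2, F5, F7, F10, F12, Kng2, Proz and Plg in coagulation.

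Library totals were 2468857 to 2730160 counts in FR F1 and 2279755 to 2569934 in control F1, and the members together held 1.67% to 2.01% of each library. One library stood apart. In control F1 replicate 3, 85 of 5873 genes with at least 50 CPM were more than 3-fold below the lowest other library, against 0 to 2 such genes in each of the other libraries. Members more than 2-fold below the lowest other library in it were C1s1, C1ra and F9, or 3 of the 37 members with at least 50 CPM. At that 2-fold limit the background in control F1 replicate 3 was 234 of the 5873 genes. Without that library 36 of 38 members had a log2 fold change below 0 with a median of -0.19. The background share below 0 and median were not computed for that fit, so these values have no comparison there. At an unadjusted p under 0.05, 13 members were lower and 0 higher, where 6.79% of all genes tested in that fit were lower. The share among abundant genes was not computed, and 0 members passed the adjusted threshold. Across genes, the deviation of control F1 replicate 3 from the other libraries ran with the GC content of the transcript. The Spearman rho was 0.62 over the 5873 genes. It was 0.61 over 35 members with at least 50 CPM, a set that leaves out C1ra and C1s1. This is a description across genes of 1 library, and the part of GC content in the member values was not tested.

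The C1 proteases carried the highest fitted fold changes among complement members, and both values rest on control F1 replicate 3. C1s1, the protease C1s of the classical pathway (chr6:124530345-124542359), had 517, 534 and 543 CPM in FR F1 livers and 545, 580 and 4.6 CPM in control F1 livers. The last value came from 12 counts and was 118-fold below the median of the other libraries. C1ra, the protease C1r that activates C1s (chr6:124512405-124523443), had 273, 289 and 325 CPM in FR F1 and 291, 333 and 51.0 CPM in control F1. In both genes 5 libraries lay close together and 1 lay far below, so the groups overlapped. The log2 fold change was 0.50 ± 1.0 (SE) for C1s1, adjusted p = 0.81, and 0.40 ± 0.54 for C1ra, adjusted p = 0.708. Without control F1 replicate 3 they were -0.09 and -0.08. A fit with no filter on low counts called C1s1 higher at 0.48, on the same 1 low library.

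Each of these genes has a close copy in the same stretch of chromosome 6, and the copy of C1ra was high where C1ra was low. C1rb had 17.2, 18.1 and 18.1 CPM in FR F1 and 14.7, 12.2 and 257 CPM in control F1, so that control F1 replicate 3 held 14.2 times the highest other library. The sum of C1ra and C1rb was 291, 307 and 343 CPM in FR F1 and 306, 345 and 308 CPM in control F1, with no library apart. C1rb held 5.92%, 5.88% and 5.27% of the C1r counts in FR F1, and 4.82%, 3.53% and 83.4% in control F1, where the last share has a Wilson 95% interval of 80.7% to 85.8% that covers counting error only. With the paralog counts added together the log2 fold change of C1ra was -0.03.

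C1s did not show the same balance between copies. C1s2 had 11.2, 21.0 and 11.5 CPM in FR F1 and 15.6, 17.1 and 19.9 CPM in control F1, so the C1s1 and C1s2 sum in control F1 replicate 3 was 24.5 CPM, against 528 to 597 CPM in the other libraries. Gm16567, a transcript annotated antisense to C1s1 that shares 576 of the 3129 exonic base pairs of C1s1, had 165, 168 and 178 CPM in FR F1 and 205, 206 and 0.384 CPM in control F1. The neighbouring genes C1rl, Pex5 and Lpcat3 were not low in that library; C1rl, for example, had 232, 233 and 276 CPM in FR F1 and 266, 344 and 346 CPM in control F1. The low values in control F1 replicate 3 covered C1ra, C1s1 and Gm16567 among the genes measured in this stretch.

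**Figure D2:**
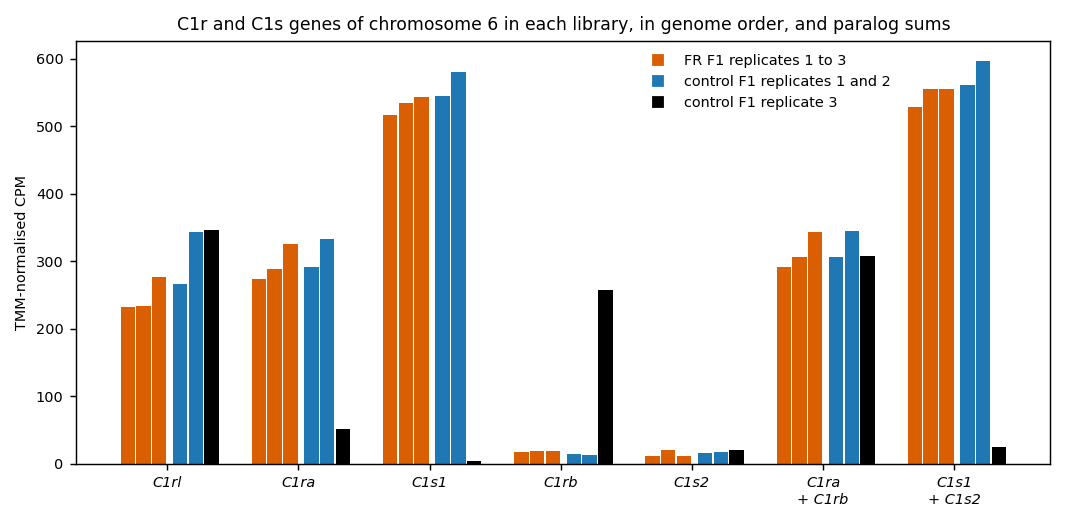
CPM of the C1r and C1s genes in each library, in their order along chromosome 6, and the sum of each gene with its close copy. Control F1 replicate 3 (black) is at 4.6 CPM for C1s1 and 257 CPM for C1rb, and the C1ra and C1rb sum is alike in all 6 libraries.

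The copies are alike enough for reads to be hard to place. The longest open reading frames of the annotated transcripts were 98.0% identical between C1ra and C1rb and 95.7% between C1s1 and C1s2, and no source used here says how reads that match both copies were counted. Sequence near the gene starts is also alike. The stretches below are from the RefSeq windows of both genes on GRCm38.p6, plus strand, C1ra at chr6:124512522-124512670 and C1rb at chr6:124570180-124570328, 5′ to 3′. The C1ra stretch spans the RefSeq start of C1ra and the C1rb stretch lies before that of C1rb, so they do not hold the same place relative to the annotated starts. Capitals mark bases that differ between them or are present in one alone, and 139 of 148 aligned bases are identical (93.9%).
C1ra: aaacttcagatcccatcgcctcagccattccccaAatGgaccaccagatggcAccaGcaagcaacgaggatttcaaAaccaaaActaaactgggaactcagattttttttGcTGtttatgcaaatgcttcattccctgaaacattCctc
C1rb: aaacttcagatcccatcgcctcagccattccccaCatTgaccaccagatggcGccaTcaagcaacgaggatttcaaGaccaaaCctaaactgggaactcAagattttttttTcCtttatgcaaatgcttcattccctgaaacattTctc

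The other initiating components differed little. Mbl2, a mannose-binding lectin of the lectin pathway, had the smallest p of this role and held 232, 229 and 220 CPM in FR F1 and 262, 267 and 227 CPM in control F1. The groups overlapped through control F1 replicate 3, and the log2 fold change was -0.15 ± 0.11, adjusted p = 0.48. Mbl1, the second such lectin, and the proteases Masp1 and Masp2 had log2 fold changes of -0.05, -0.05 and -0.11. Masp2 shares 1817 of 3307 exonic base pairs with Tardbp on the opposite strand, and without a stated strand setting their reads cannot be told apart.

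The 3 listed members that belong to the C3 convertases lay lower in FR F1 at an unadjusted p under 0.05, and 0 passed the adjusted threshold. The C4 genes were read among the other pathway genes below. C3, the central component that all starting routes cleave (chr17:57203970-57228136), had 1260, 1240 and 1020 CPM in FR F1 livers and 1350, 1490 and 1370 CPM in control F1 livers. The groups did not overlap, and the log2 fold change was -0.26 ± 0.10, adjusted p = 0.237. C2, the serine protease of the classical and lectin convertase, had 64.7, 72.6 and 82.5 CPM in FR F1 and 81.5, 104 and 110 CPM in control F1. One FR F1 library was above 1 control F1 library, and the log2 fold change was -0.43 ± 0.17, adjusted p = 0.25.

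Cfb, factor B of the alternative pathway convertase, had the lowest log2 fold change of all members, at far lower counts than the other tested members. It had 3.37, 7.37 and 3.69 CPM in FR F1 and 8.67, 12.2 and 8.05 CPM in control F1. The groups did not overlap, and the log2 fold change was -0.98 ± 0.40, with a 95% interval of -1.91 to -0.06 and adjusted p = 0.255. Cfb shares 2246 of its 2825 exonic base pairs, and C2 1656 of 3872, with Gm20547, a gene annotated across both that had 0 counts in every library. No source used here says how reads shared by 2 genes were counted, and 579 exonic base pairs of Cfb lie outside that gene.

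Among the terminal components, which assemble the membrane pore, 4 of 6 were below 0 and 0 passed the test. C8b, the beta chain of C8, had 374, 408 and 376 CPM in FR F1 and 528, 457 and 417 CPM in control F1. The FR F1 libraries were all below the control F1 libraries, and the log2 fold change was -0.28 ± 0.11, adjusted p = 0.26. C8a, its alpha chain, lies beside C8b on chromosome 4 and had -0.23, while C8g, its gamma chain, on chromosome 2, had -0.00057. Hc, which encodes complement C5, the precursor of the pore's first component, had -0.05.

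C9 and C6 were the terminal components above 0. C9, which polymerises into the pore, had 480, 576 and 526 CPM in FR F1 and 554, 499 and 352 CPM in control F1. Its groups overlapped, and the log2 fold change was 0.17 ± 0.17, adjusted p = 0.599, and -0.0015 without control F1 replicate 3. C6 had 467, 477 and 510 CPM in FR F1 and 343, 535 and 435 CPM in control F1, where the control F1 libraries lay on both sides of the FR F1 libraries. Its log2 fold change was 0.15 ± 0.16, adjusted p = 0.626, and it was -0.0014 without control F1 replicate 1 and 0.31 without control F1 replicate 2.

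Both soluble regulators lay below 0. Cfi, factor I, which cleaves activated C3 and C4, had 336, 391 and 361 CPM in FR F1 livers and 471, 433 and 411 CPM in control F1 livers. The groups did not overlap, and the log2 fold change was -0.27 ± 0.10, adjusted p = 0.233. C4bp, a cofactor of factor I, had -0.19.

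**Figure D3:**
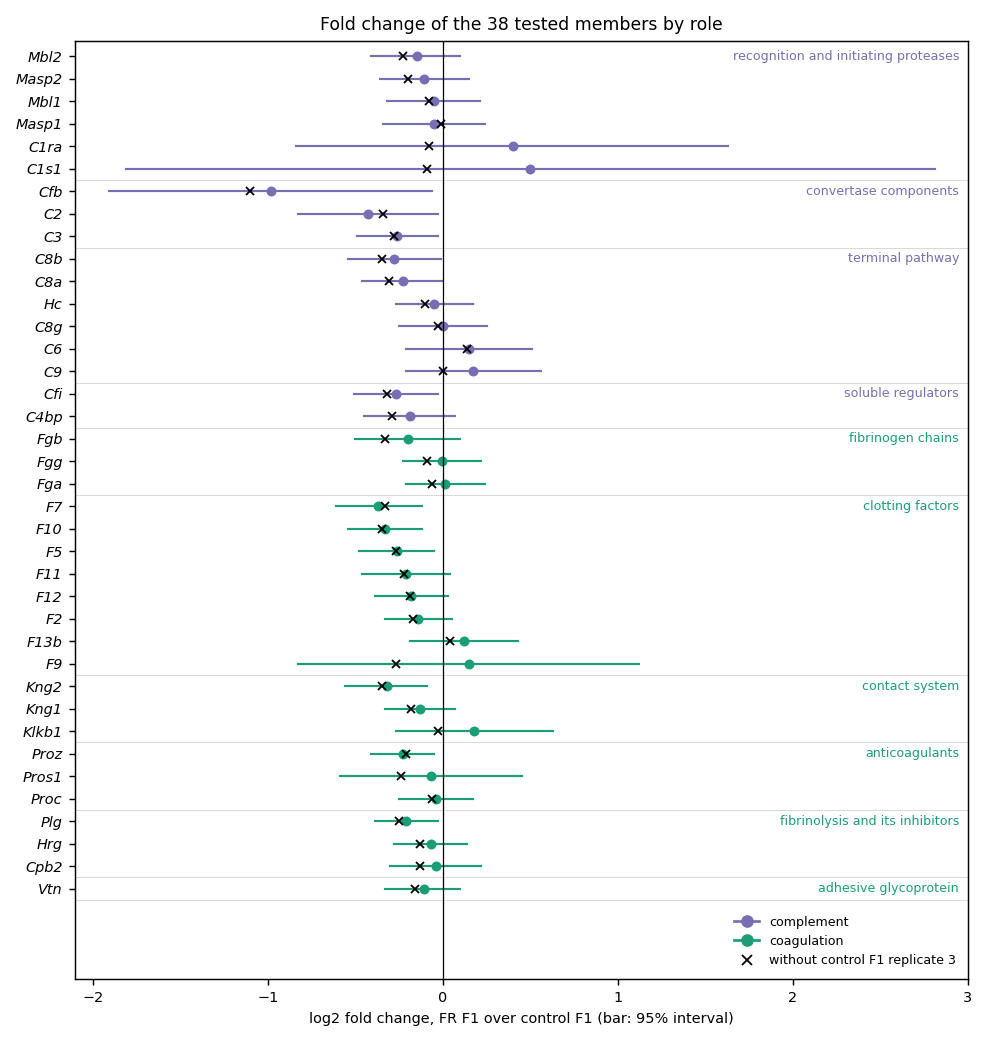
Log2 fold change of FR F1 over control F1 for the 38 tested members, ordered by role, with 95% intervals from the edgeR fit, and crosses for the fit without control F1 replicate 3. Most points lie between -0.4 and 0.2, and the crosses of C1ra, C1s1 and F9 lie below 0 while their points lie above it.

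The fibrinogen chains, the precursors of fibrin, included the most abundant member per length, and 0 of 3 passed the test. Fgg was highest of all members at 313 CPM per kilobase of exon, followed by Vtn at 280 and Fga at 253, while Cfb had 2.56 and A2m 0.147. The order among the highest is uncertain if counts met a ceiling near 1 per base pair. The Cfb value is uncertain because 2246 of its 2825 exonic base pairs are shared with Gm20547. Fga had 789, 710 and 795 CPM in FR F1 and 810, 784 and 679 CPM in control F1. Its groups overlapped fully, and the log2 fold change was 0.01 ± 0.10, adjusted p = 0.952. Fgb had the smallest p of the 3 chains, with 692, 721 and 781 CPM in FR F1 and 880, 957 and 684 CPM in control F1. Control F1 replicate 3 lay below the FR F1 libraries and the other control F1 libraries above them, and the log2 fold change was -0.20 ± 0.13, adjusted p = 0.435. Fgg had a log2 fold change of -0.0025.

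Of the 8 clotting factors, 6 were below 0 and in 5 the groups did not overlap. The background below 0 was 50% of all tested genes and 59.3% of those of at least 200 CPM. For lower without overlap it was 13.2% and 22.4%. F10, factor X, which cleaves prothrombin, had the smallest p of all members (chr8:13037308-13056676). It had 385, 383 and 423 CPM in FR F1 livers and 493, 520 and 485 CPM in control F1 livers. Every FR F1 library was below every control F1 library, and the log2 fold change was -0.33 ± 0.09, adjusted p = 0.142. F7, factor VII, the protease that works with tissue factor to start clotting (chr8:13026034-13035809), had 217, 199 and 207 CPM in FR F1 and 269, 251 and 282 CPM in control F1. Its groups did not overlap either, and the log2 fold change of -0.37 ± 0.11, adjusted p = 0.152, was the lowest of the coagulation members.

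Proz, protein Z, a cofactor in the inhibition of factor X, follows F7 and F10 directly on chromosome 8 (chr8:13060914-13076026). It had 612, 597 and 593 CPM in FR F1 and 691, 697 and 725 CPM in control F1, without overlap, and a log2 fold change of -0.23 ± 0.08, adjusted p = 0.20. Beyond the 3 genes, the next protein-coding neighbours Pcid2 and Cul4a had -0.36 ± 0.17 and -0.22 ± 0.12, also without overlap. Over all tested genes, 13.2% were lower without overlap. Further on, Lamp1, Grtp1, Dcun1d2 and Tmco3 had -0.07, -0.11, -0.03 and 0.09. On the other side, before F7, the protein-coding neighbour Atp11a had 0.05 ± 0.31. None of these neighbours passed the test.

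F5, factor V, the cofactor of factor X, had 413, 473 and 418 CPM in FR F1 and 519, 525 and 522 CPM in control F1. The FR F1 libraries were all lower, and the log2 fold change was -0.26 ± 0.09, adjusted p = 0.211. F2, prothrombin, F12, the factor that starts contact activation, and F11, its substrate, had -0.14, -0.18 and -0.21. F13b, the carrier subunit of the fibrin crosslinking factor XIII, had 222, 262 and 214 CPM in FR F1 and 241, 211 and 191 CPM in control F1. Its groups overlapped, with a log2 fold change of 0.12 ± 0.13, adjusted p = 0.657.

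F9, factor IX of haemophilia B, on the X chromosome (chrX:59999464-60030759), was a further member decided by 1 library. It had 247, 296 and 259 CPM in FR F1 and 346, 295 and 83.6 CPM in control F1. The low value was in control F1 replicate 3, 3.53-fold below the median of the other libraries. F9 has a transcript GC content of 39%, the lowest of the 37 members with at least 50 CPM. C4bp, next lowest at 39.8%, was 1.08-fold below in that library, and the part of GC content in the F9 value was not tested. The log2 fold change of F9 was 0.15 ± 0.42, adjusted p = 0.87, and -0.27 without that library.

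In the contact system, which activates factor XI and releases bradykinin, 2 of 3 genes were below 0. Kng2, a kininogen, had 314, 283 and 267 CPM in FR F1 and 362, 371 and 349 CPM in control F1. The groups did not overlap, and the log2 fold change was -0.32 ± 0.10, adjusted p = 0.179. Kng1, whose longest open reading frame is 92.9% identical to that of Kng2, had -0.13, and -0.19 with the counts of both added together, so the split of reads between the 2 kininogens is uncertain. Klkb1, plasma prekallikrein, had 376, 392 and 414 CPM in FR F1 and 447, 353 and 247 CPM in control F1. Its log2 fold change was 0.18 ± 0.20, adjusted p = 0.645, with the control F1 libraries on both sides of FR F1, and -0.03 without control F1 replicate 3. Klkb1 shares 2267 of 5249 exonic base pairs with Gm45753, which had 3 counts in all libraries together.

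The anticoagulants were all below 0, Proz by the values above. Proc, protein C, had a log2 fold change of -0.04, with the narrowest spread of all members at a coefficient of variation of 4.4% over the 6 libraries. Pros1, protein S, its cofactor, had -0.07 ± 0.23. Among the 7 members whose proteins are gamma-carboxylated with vitamin K (F2, F7, F9, F10, Proc, Pros1 and Proz), 6 were below 0, the median was -0.14 and 0 passed the test.

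In fibrinolysis, Plg, the precursor of plasmin, had 745, 759 and 730 CPM in FR F1 livers and 884, 882 and 815 CPM in control F1 livers. The groups did not overlap, and the log2 fold change was -0.21 ± 0.08, adjusted p = 0.232. Plg shares 420 exonic base pairs with Slc22a3 on the other strand, which had at most 34 counts in a library. Cpb2, the carboxypeptidase that slows clot lysis, had -0.04, and Hrg, a plasminogen-binding glycoprotein, -0.07. A2m, a broad protease inhibitor, had 1, 1 and 4 counts in FR F1 and 3, 3 and 3 counts in control F1 and was not tested. Vtn, vitronectin, which binds the terminal complement complex and the plasminogen activator inhibitor, had 537, 516 and 583 CPM in FR F1 and 599, 617 and 555 CPM in control F1. These overlapped, with a log2 fold change of -0.11 ± 0.09, adjusted p = 0.53.

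Deposited counts of the most abundant members came close to 1 per base pair of transcript. A mean of at least 0.5 counts per base pair of the longest transcript was reached by 15 of 38 members (39.5%) and by 214 of all tested genes (1.64%). Fgg stood highest among them with a mean of 0.935 and a highest library value of 1.01, followed by Kng1 with 0.852 and Vtn with 0.808, and the albumin gene Alb had 0.998. The median coefficient of variation over the 6 libraries was 6.98% for these 15 members, 13.2% for the members under 0.5 and 12.2% for all tested genes of at least 200 CPM. What set the level was not tested, and differences of the highest members may be understated if it is a ceiling. The 15 had a median log2 fold change of -0.13, against -0.11 for the other 23. With genes at or above 0.5 left out of the fit, the median was -0.08 over the complement members and -0.21 over the coagulation members that remained.

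**Figure D4:**
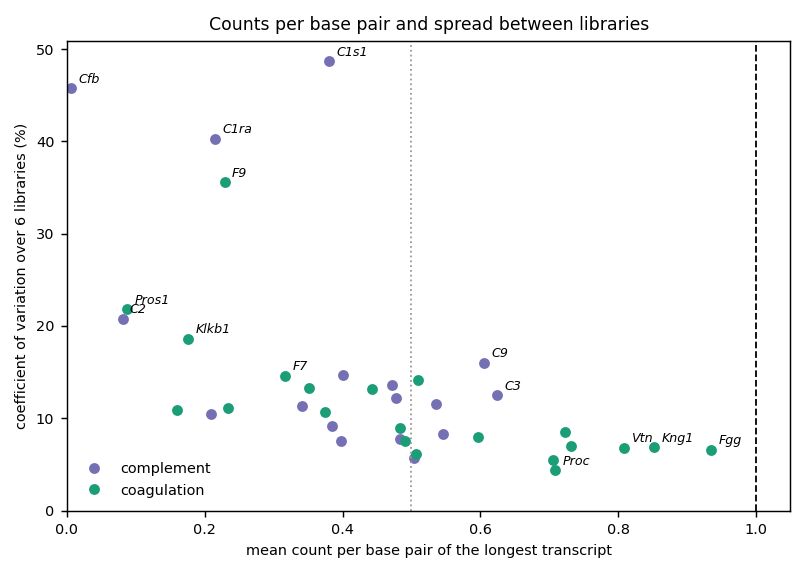
Mean counts per base pair of the longest transcript against the coefficient of variation of CPM over all 6 libraries, 1 point per tested member, with lines at 0.5 and 1 count per base pair. Right of the dotted line the median spread is 6.98%, with C9 widest at 16%, and over all members C1s1, Cfb, C1ra and F9 have the widest.

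Other genes of the same pathways, which include receptors, inhibitors and components made outside hepatocytes, held 2 that passed the test. Among 22 tested of 26 other complement genes, 1 was higher and 0 lower, and among 19 tested of 24 other coagulation genes 1 was higher and 0 lower. Colec10, a collectin that starts the lectin pathway (chromosome 15), had 58.7, 56.0 and 43.9 CPM in FR F1 livers and 16.9, 11.7 and 11.1 CPM in control F1 livers. Every FR F1 library lay above every control F1 library, and Colec10 rose by a log2 fold change of 2.0 ± 0.24, adjusted p = 0.0201. Tfpi, the inhibitor of the tissue factor and factor VII complex, known as a product of endothelium (chromosome 2), had 31.4, 29.5 and 24.2 CPM in FR F1 and 9.97, 8.11 and 6.14 CPM in control F1. Its groups were also wholly apart, and Tfpi rose by 1.81 ± 0.27, adjusted p = 0.0374. Colec10 was no longer called without FR F1 replicate 1 or 2 or control F1 replicate 2, and Tfpi without any 1 FR F1 library or control F1 replicate 2, with log2 fold changes of 1.91 to 1.95 and 1.74 to 1.92 in those fits.

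In each list the gene of next smallest p did not pass. Cd55, a membrane protein that dissolves C3 convertases, had 28.4, 24.3 and 38.2 CPM in FR F1 and 10.4, 4.06 and 0.767 CPM in control F1. The groups did not overlap, and the log2 fold change was 2.59 ± 0.62, adjusted p = 0.106. Serpina10, the protein Z-dependent inhibitor of factor X, had 259, 266 and 271 CPM in FR F1 and 326, 421 and 338 CPM in control F1. It lay lower in all FR F1 libraries, with a log2 fold change of -0.45 ± 0.12, adjusted p = 0.139. C4a, a complement C4 gene that may share reads with its close copy C4b, was named after its values were seen and had 433, 410 and 657 CPM in FR F1 and 732, 857 and 900 CPM in control F1. Its groups did not overlap, and the log2 fold change was -0.73 ± 0.18, adjusted p = 0.119. C4b had 1060, 856 and 1020 CPM in FR F1 and 993, 1100 and 969 CPM in control F1, with overlap. Its log2 fold change was -0.06 ± 0.10, adjusted p = 0.783. C4a is annotated as a processed transcript and C4b as protein-coding. DESeq2, the fit without a filter and the fit without FR F1 replicate 3 called C4a lower, and the fit without a filter called Serpina10 lower. Cd55 was called higher by DESeq2, by the fit without a filter and by the fit without control F1 replicate 1.

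Of 6 tested coagulation inhibitors made by liver, 5 were below 0 with a median of -0.19. Liver-made genes among the other complement genes were split, with 7 of 13 tested below 0, 6 above and a median of -0.06. Both liver-made lists pooled had 12 of 19 tested genes below 0 and 7 above, with a median of -0.13. Of the 13 tested complement and coagulation genes known from other cells, 11 were above 0 with a median of 0.67.

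Markers of other liver cells were also above 0 in FR F1 for most genes, and few passed the test. All 11 markers of sinusoidal endothelium were above 0 with a median log2 fold change of 0.93, and their sum was 0.0803% to 0.0975% of counts in FR F1 and 0.0446% to 0.0690% in control F1. All 8 stellate cell markers were above 0 (median 0.83), with a sum of 0.0464% to 0.0635% in FR F1 and 0.0229% to 0.0344% in control F1. All 7 Kupffer cell markers (median 0.43) summed to 0.0310% to 0.0607% in FR F1 and 0.0250% to 0.0451% in control F1. The most abundant of each list were Stab2 with a log2 fold change of 0.05, Dcn with 1.07 and Clec4f with 0.24. Of all these markers 1 passed the test, the stellate cell marker Pdgfra, at 1.53 ± 0.26, adjusted p = 0.0456. Without control F1 replicate 3 Pdgfra had an adjusted p of 0.0512 and was not called, while the endothelial markers Oit3, Clec4g, Gpr182 and Eng and the stellate cell marker Reln were called higher. The background in that fit was 83 genes called higher and 76 lower of 13332 tested.

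The 3 tested B cell markers had a median of 1.34, led in level by Ighm, and the 2 tested cholangiocyte markers had 0.39, led by Spp1. The 11 hepatocyte markers, led in level by Apob, had a median of -0.18 with 7 below 0, and summed to 0.565% to 0.618% in FR F1 and 0.562% to 0.675% in control F1. No listed marker was at 0 in all libraries. The part of these cell types in the member and pathway values was not tested, and in bulk RNA fewer cells of a type and less RNA per cell cannot be told apart.

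**Figure D5:**
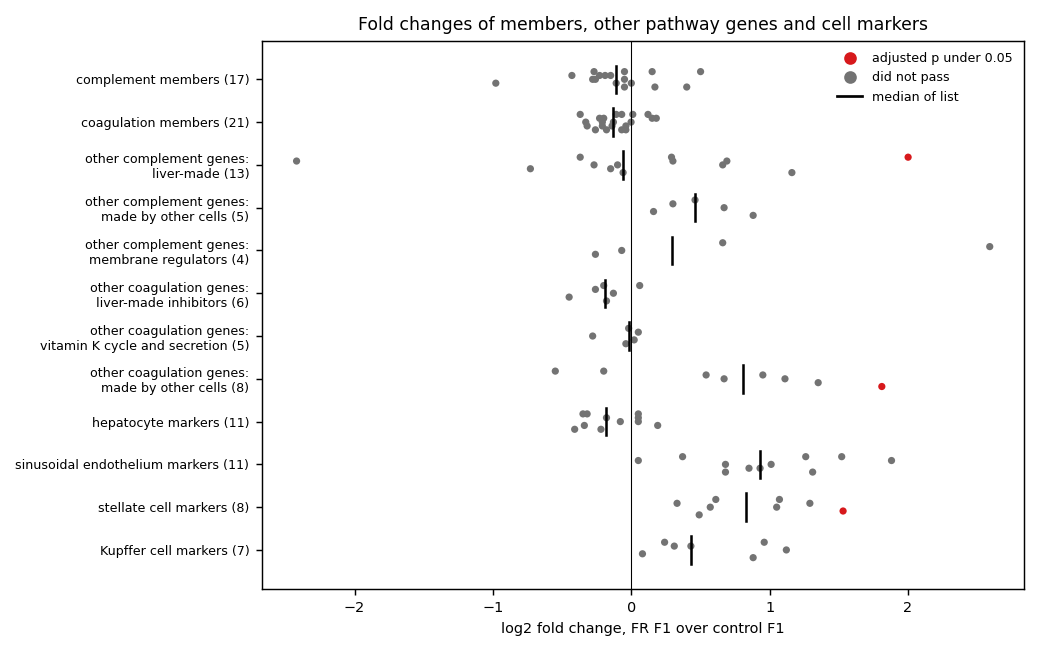
Log2 fold changes of FR F1 over control F1 for the tested members, the other pathway genes by role and the marker lists, 1 point per gene with the number of genes in brackets. Red points passed the test, bars are medians, and the lowest point among other complement genes is C1rb, set by control F1 replicate 3.

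Regulators of liver plasma protein genes were read beside the members, and 0 of 16 passed the test. Of the 16, 6 were above 0 and 10 below, with a median log2 fold change of -0.15. Cebpb, a C/EBP factor of the acute phase response, had 37.8, 44.6 and 57.9 CPM in FR F1 livers and 29.9, 16.7 and 10.7 CPM in control F1 livers, without overlap. Its log2 fold change was 1.29 ± 0.36, adjusted p = 0.141. Il6st, the signalling subunit of the interleukin 6 receptor, had 314, 296 and 284 CPM in FR F1 and 249, 216 and 226 CPM in control F1, again without overlap. Its log2 fold change was 0.37 ± 0.11, adjusted p = 0.153. Hnf4a, named after its values were seen, encodes HNF4 alpha and had 448, 465 and 549 CPM in FR F1 and 609, 636 and 624 CPM in control F1. It lay lower in all FR F1 libraries, with a log2 fold change of -0.35 ± 0.10 and the same adjusted p.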

How the data were processed

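Liver RNA of 3 FR F1 and 3 control F1 libraries was analysed from 1 table of whole-number counts per gene, deposited by the authors. Groups and replicate numbers come from the sample titles. Per the submitters' processing notes, the tools were HTSeq, STAR, DESeq2 and StringTie on mm10, with no roles, order or versions. No source used here gives the strand setting, the annotation release or the handling of shared or duplicate reads, and no molecular identifiers are named. Per the labels' protocols, RNA came from frozen liver through Trizol.

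Symbols and positions are from GENCODE M21 (GRCm38, mm10), matched on Ensembl ID. Counts were tested in edgeR 4.0.16 (R 4.3.3) with TMM factors, filterByExpr (minimum count 10, minimum total 15) and quasi-likelihood F tests, two-sided, with Benjamini-Hochberg adjustment over 13022 genes. CPM used TMM-scaled totals. Totals were 2279755 to 2730160 counts, and the common dispersion over the tested genes was 0.05, or 22.4% between replicates. Standard errors and intervals came from the log2 fold change and F statistic of each gene. Replicates differed beyond counting noise, so no library was treated as deposited a second time, which does not show that they came from separate animals. The fit was tested on simulated data.

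Members and lists were chosen with earlier results of these data known. Per-library values were given for the 4 highest and 4 lowest log2 fold changes in complement and in coagulation, the smallest p of each role, and called genes and the 2 smallest p in the other pathway and regulator lists. The most abundant marker of each cell type was named. Alternatives were DESeq2 1.42.0, limma-voom (limma 3.58.1), 3 scalings, 2 filters, a replicate block, genes of at least 0.5 counts per base pair left out, another threshold, each library left out and, chosen after seeing the data, paralog counts summed.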

Additional observations from a re-analysis of the deposited data

How the results depend on the processing

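No member was called under DESeq2, limma-voom, 3 other scalings, a minimum count of 30, the replicate block, an adjusted p under 0.10, any left-out library or summed paralogs, nor among the 23 members left once genes of at least 0.5 counts per base pair were removed. Without a filter on low counts 1 complement member was called, C1s1 (adjusted p = 0.0196, range over its alternatives 0.0196 to 0.904), whose value rests on 1 library. Changed genes over the whole table numbered 109, and 457 with DESeq2, 1251 without a filter, 322 at an adjusted p under 0.10, 21 with the replicate block and 7 to 651 with 1 library left out. Other complement genes called numbered 1, and 3 with DESeq2, 7 without a filter and 0 to 3 with 1 library left out. Other coagulation genes called numbered 1, and 2 without a filter, 0 with the block, where Tfpi lost its call, and 0 to 1 with 1 library left out. The median log2 fold change with 1 library left out was -0.20 to -0.04 for complement and -0.19 to -0.10 for coagulation, lowest without control F1 replicate 3 in both, and -0.21 for coagulation with genes near 1 count per base pair left out. The causes were not tested.

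Same-numbered libraries had deviations correlated at -0.0173, 0.108 and 0.153, so the numbers were not taken to pair them. Of 38 members, 24 kept their sign in every setting that tested them, 16 at most, since 15 members were not in the fit without genes near 1 count per base pair and Cfb was not in that with a minimum count of 30. C8g turned positive with DESeq2 (0.01), limma-voom (0.0024), RLE, upper quartile and total-count scaling (0.01 each), a minimum count of 30 (0.03) and the block (0.0017), and Fgg with the same settings (0.01, 0.01, 0.01 each, 0.03 and 0.0024). With 1 library left out, values that changed sign were C8g (-0.04 to 0.06), Fgg (-0.09 to 0.05), Mbl1 (-0.12 to 0.04), Masp1 (-0.16 to 0.02), Hc (-0.10 to 0.04), Cpb2 (-0.13 to 0.02), Pros1 (-0.24 to 0.20), C6 (-0.0014 to 0.31), C9 (-0.0015 to 0.31), Fga (-0.06 to 0.06), C1ra (-0.08 to 0.79), C1s1 (-0.09 to 0.95), F9 (-0.27 to 0.5) and Klkb1 (-0.03 to 0.39). With paralogs summed C1ra was at -0.03. Counts were lowest for Cfb (9 to 27 per library) and A2m (1 to 4).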
